A study of Mus musculus with 9 samples.

Results

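The orphan and adhesion G protein-coupled receptors comprised 46 of the 15109 genes counted in mouse mast cells, chosen by name alone: every gene whose symbol is Gpr followed by a number, or Adgr followed by a family letter and a number. Of these, 33 were numbered Gpr genes and 13 were adhesion receptors. The GENCODE M21 annotation holds 99 protein-coding genes with such names, and those without a row in the count table were not analysed here. Polyadenylated RNA was sequenced from bone marrow-derived mast cells of wild-type C57BL/6 mice, which were grown for at least 4 weeks with 30% conditioned medium of WEHI-3, a mouse leukaemia line that secretes interleukin 3, and 20% serum. Control cells were untreated. BSA cells were sensitised with IgE against dinitrophenyl (anti-DNP-IgE) and exposed to the antigen DNP-BSA, which crosslinks that IgE on its receptor. Taxinine cells received taxinine, a taxane diterpenoid of yew, for 1 h before the same IgE and antigen treatment. No group had IgE without antigen, so "with antigen" below means IgE and antigen together, against untreated cells. There were 3 libraries in each group, the labels give no taxinine dose, antigen duration, vehicle or taxinine-only group, and they do not say whether the replicates were separate animals or cultures. The p-values therefore measure the spread between these libraries, which may be technical.

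G protein-coupled receptors span the membrane with a bundle of helices and pass the binding of a ligand to a heterotrimeric G protein inside the cell. The numbered Gpr genes were named from sequence before a ligand was known; several have since been paired with lipids, protons or peptides, and others remain orphans. Adhesion receptors carry a long extracellular region that is cut from the membrane part next to a tethered agonist, and they bind matrix or surface proteins of neighbouring cells. The IgE receptor of mast cells signals through tyrosine kinases instead, and ligands of G protein-coupled receptors are known to strengthen or restrain the degranulation that it starts.

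Library totals ranged from 8975371 counts in Taxinine replicate 1 to 14116976 in Control replicate 2. On these plain totals 3 counts, the detection limit used here, corresponded to 0.213 to 0.334 CPM (counts scaled so that every library has the same total). Totals were then adjusted by edgeR's TMM factors, and levels are given on that scale as mean ± SD with n = 3. All 15 mast cell markers searched were in the table, and their summed level was 55710 to 57230 CPM in Control, 60100 to 61940 in BSA and 59920 to 61240 in Taxinine. Marker lists of neutrophils, of T, B and natural killer cells and of stromal cells had 2 of 10, 3 of 11 and 0 of 7 genes in the table and summed to at most 4.42 CPM in any library. Marker lists that moved with the groups are given after the receptors. These are bulk samples, in which fewer cells of a type and less RNA per cell cannot be told apart.

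Promoter sequence is shown for 4 of the receptors that had a window in the RefSeq promoter sequences used. Gpr183 and Gpr174 were called higher in BSA than in Control and lower again in Taxinine. Gpr141b was the single receptor called higher in Taxinine than in BSA. Its neighbour Gpr141 passed the test in no comparison with TMM totals. Gpr171, Adgre5 and Gpr34 had no window among these sequences and could not be shown. The windows are from RefSeq on build GRCm38.p6, run 5′ to 3′ on the strand of the gene, and cover 250 bases before to 50 bases after the annotated start. They lie at chr14:121965144-121965443 (minus strand) for Gpr183, chrX:107284096-107284395 (plus) for Gpr174, chr13:19732902-19733201 (minus) for Gpr141b and chr13:19824208-19824507 (minus) for Gpr141. The window of Gpr174 lies inside the GENCODE M21 span of that gene, which starts at 107255878. Capitals mark matches on either strand to any of 8 motifs of transcription factors active in stimulated or differentiating mast cells.
Gpr183: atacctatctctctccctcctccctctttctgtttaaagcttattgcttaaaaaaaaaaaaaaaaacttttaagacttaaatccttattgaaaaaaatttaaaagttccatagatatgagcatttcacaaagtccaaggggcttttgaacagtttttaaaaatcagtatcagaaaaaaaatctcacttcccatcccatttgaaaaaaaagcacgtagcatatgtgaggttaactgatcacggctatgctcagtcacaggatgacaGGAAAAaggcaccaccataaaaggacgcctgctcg
Gpr174: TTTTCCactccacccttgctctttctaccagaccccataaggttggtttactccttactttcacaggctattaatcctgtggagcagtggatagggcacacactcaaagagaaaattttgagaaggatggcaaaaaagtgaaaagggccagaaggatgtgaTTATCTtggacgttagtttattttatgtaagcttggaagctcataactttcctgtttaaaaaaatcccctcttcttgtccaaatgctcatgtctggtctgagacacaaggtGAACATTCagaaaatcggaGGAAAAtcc
Gpr141b: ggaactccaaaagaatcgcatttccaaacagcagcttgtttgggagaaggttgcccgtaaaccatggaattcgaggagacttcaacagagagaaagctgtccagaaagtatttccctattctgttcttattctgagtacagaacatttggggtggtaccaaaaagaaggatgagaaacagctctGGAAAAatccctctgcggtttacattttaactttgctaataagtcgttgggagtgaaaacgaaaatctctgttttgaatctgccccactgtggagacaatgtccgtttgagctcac
Gpr141: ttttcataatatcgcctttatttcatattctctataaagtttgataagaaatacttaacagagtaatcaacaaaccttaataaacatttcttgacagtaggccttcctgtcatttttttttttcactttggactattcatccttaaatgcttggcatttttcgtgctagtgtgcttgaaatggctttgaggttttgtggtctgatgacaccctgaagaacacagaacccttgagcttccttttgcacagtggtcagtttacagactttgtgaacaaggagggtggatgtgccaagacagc

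The window of Gpr183 held 1 match to GGAAAA, the core bound by NFAT factors, and that of Gpr141b also held 1. The window of Gpr174 held 2 such matches, 1 to the GATA motif AGATAA and 1 to GAANNTTC, the core of the heat shock element. None of the 8 motifs was in the window of Gpr141. GGAAAA was in 23.36% of all 32851 mouse promoters of this length, AGATAA in 11.18% and GAANNTTC in 7.86%. Across the 45 promoters of the 33 receptors that matched the RefSeq table, GGAAAA was in 8, AGATAA in 4 and GAANNTTC in 5. The AP-1 motif TGANTCA was in 2 of the 45 and in 7.81% of all promoters, the E-box CACGTG in 2 and 7.15%, and the EGR core GCGGGGGCG in 4 and 2.91%. The cyclic AMP response element TGACGTCA and the NBRE motif AAAGGTCA, bound by NR4A receptors, were in 0 of the 45 and in 1.79% and 1.51% of all promoters. No match printed in capitals overlapped another, and a match is a description of the letters only.

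The receptors differed widely in level. Over the 9 libraries 22 had a mean of at least 10 CPM, 11 lay between 1 and 10 CPM, 13 were under 1 CPM, and 40 had a count in every library. Per kilobase of exon, the highest in Control were Gpr34 at 109.6 CPM per kb, Adgre5 at 94.7, Adgrg1 at 63.9 and Gpr171 at 53.6. Gpr34 is a receptor for lysophosphatidylserine, Adgre5 (CD97) binds CD55, Adgrg1 (GPR56) binds collagen and transglutaminase, and Gpr171 was paired with the neuropeptide BigLEN. Gpr141 followed at 33.1 CPM per kb, Adgrg3 at 27.8 and Gpr174 at 22.2. In BSA the order was led by Gpr171 at 382.3 CPM per kb, then Adgre5 at 247.3 and Gpr34 at 92.4, and in Taxinine by the same genes at 311.9, 210.8 and 65.2. Gpr171 thus went from the fourth place in untreated cells to the first in both groups that met antigen.

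**Figure D1:**
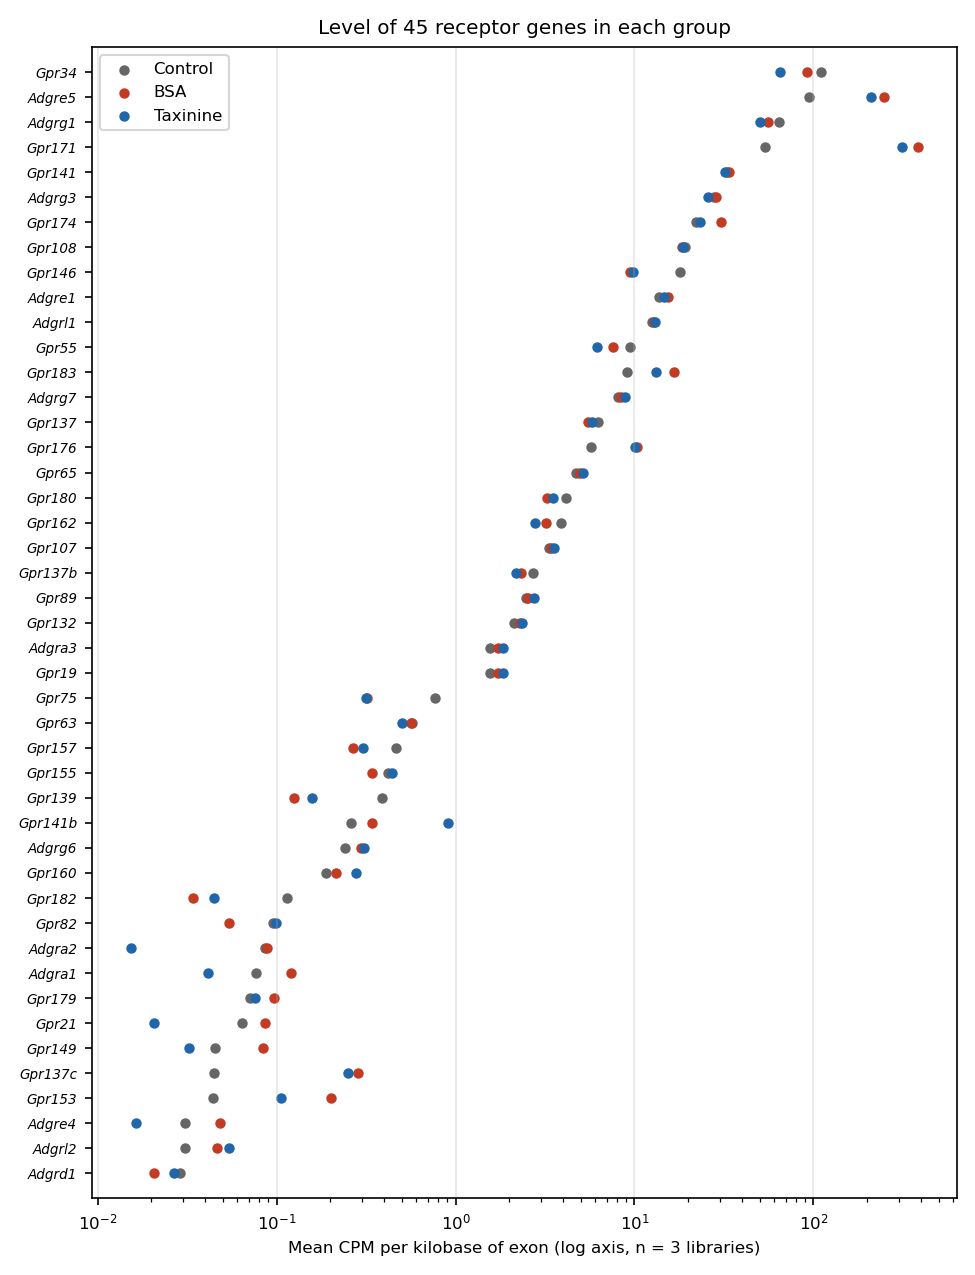
Mean level of 45 of the receptors in CPM per kilobase of exon, on a log axis, in Control (grey), BSA (red) and Taxinine (blue), each point the mean of 3 libraries. Gpr34 was highest in Control at 109.6 CPM per kb and Gpr171 in BSA at 382.3.

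The summed level of all 46 receptors was 2178, 2137 and 2166 CPM in Control, 3422, 3428 and 3400 in BSA, then 2976, 2946 and 2954 in Taxinine. Without Gpr171 and Adgre5 the sums were 1711, 1658 and 1687 CPM in Control, 1633, 1636 and 1641 in BSA, then 1486, 1474 and 1459 in Taxinine. The higher total in the antigen-exposed libraries thus came from this pair of receptors, and the rest summed to less in every BSA library than in any Control library.

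BSA against Control asks what sensitisation with antigen exposure did to these transcripts. With edgeR's quasi-likelihood test, adjusted over all genes and called at an adjusted p under 0.05, 17 of the 46 receptors differed (37.0%), 8 higher and 9 lower, against 34.0% of all genes tested. The share was thus near that of the whole table. The groups did not overlap for 27 receptors (58.7%), against 42.9% of all genes. The median log2 fold change was 0.05 over the 46 receptors and 0.00 over all genes. With plain library totals in place of TMM the medians moved to -0.17 and -0.23, and 18 receptors were called lower and 7 higher. Of all genes 7977 were then called in place of 5144, with 13.6% of them higher in place of 47.6%. Taxinine against BSA asks what pretreatment changed in antigen-exposed cells. There 9 receptors differed (19.6%), 1 higher and 8 lower, against 6.98% of all genes, of which 2.86% were higher and 4.12% lower. The groups did not overlap for 16 receptors (34.8%), against 23.9% of all genes, and the medians were -0.01 over the receptors and 0.00 over all genes. The 8 receptors called lower all had at least 23.1 CPM in Taxinine, and 5 of them were called without BSA replicate 3, without Taxinine replicate 1 and without Taxinine replicate 3. Of all genes those fits called 737, 659 and 699, in place of 1055. With plain library totals 57.6% of all genes called were higher in Taxinine, in place of 40.9%. Both comparisons use the same BSA libraries. Of the 7 receptors called in both, Gpr171, Adgre5, Gpr183 and Gpr174 were higher in BSA than in Control and lower in Taxinine than in BSA, and Gpr34, Gpr55 and Adgrg1 were lower in both.

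**Figure D2:**
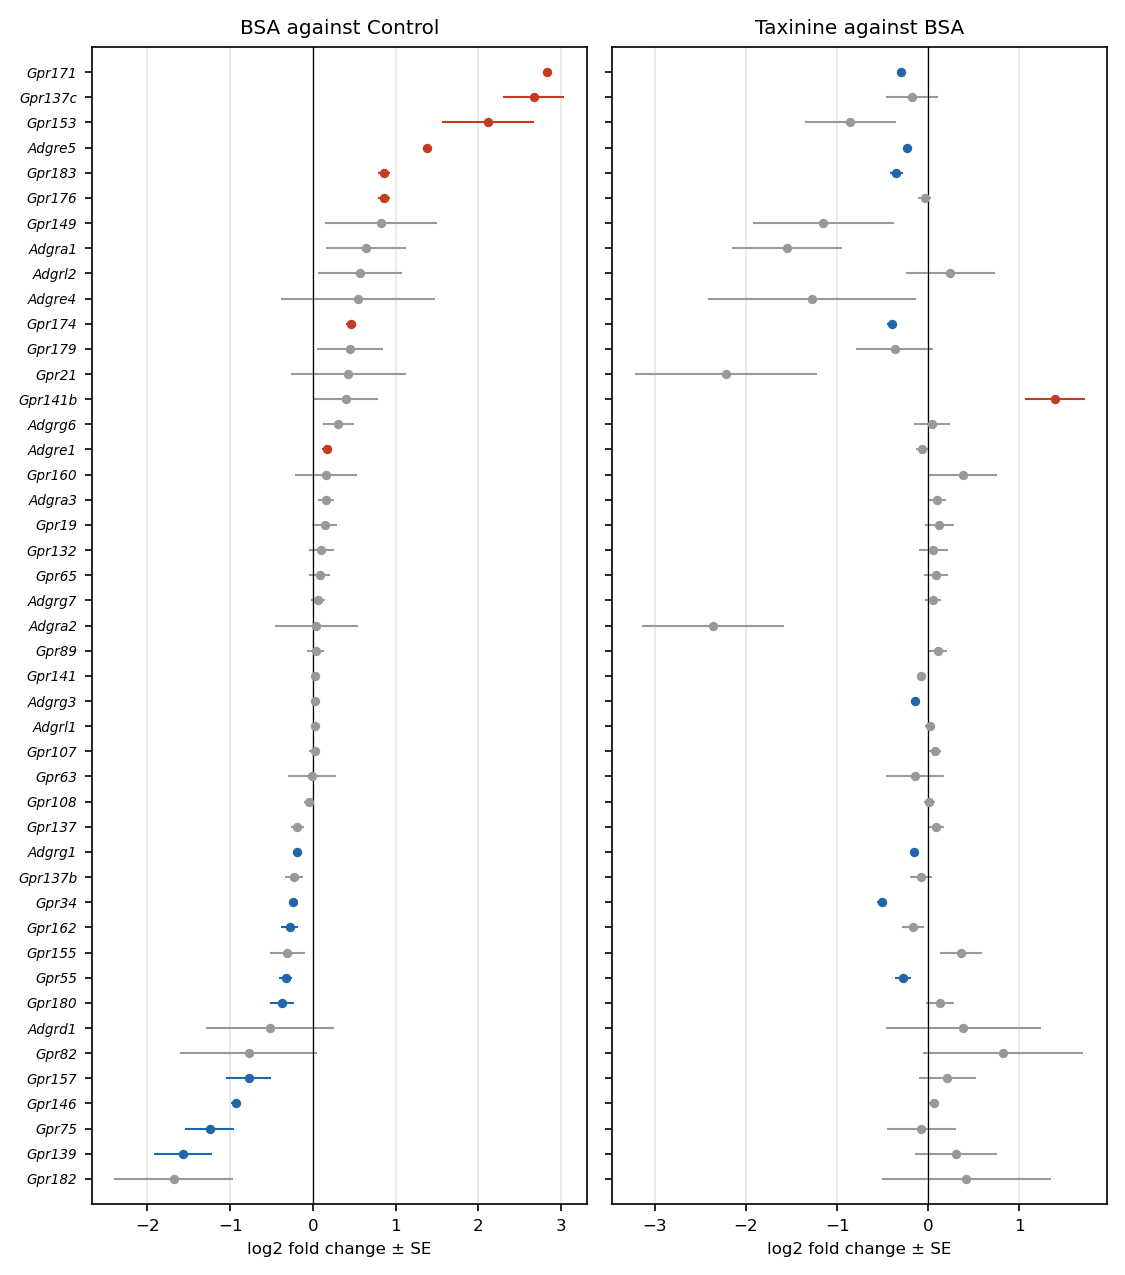
Log2 fold change ± SE of 45 of the receptors in BSA against Control (left) and Taxinine against BSA (right), ordered by the left panel, with receptors called higher in red, called lower in blue and the others in grey. Gpr171 had the highest value on the left at 2.84, and Gpr141b was the only receptor called higher on the right at 1.39.

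The edgeR counts by role can be read against edgeR's shares of all genes. These were 16.2% called higher and 17.8% lower in BSA against Control, and 2.86% and 4.12% in Taxinine against BSA. Of the 11 receptors paired with lipids, protons or peptides, 3 rose and 4 fell in BSA against Control, and 5 fell in Taxinine against BSA while the other 6 did not pass the test. The median log2 fold change of this group was 0.08 in the first comparison and -0.08 in the second. Gpr171 (ENSMUSG00000050075, chr3:59096448-59101821, minus strand, GRCm38) measured 122, 114 and 122 CPM in the Control libraries, 926, 799 and 827 in BSA, then 688, 707 and 688 in Taxinine. The 3 groups did not overlap, and every antigen-exposed library was far above every untreated one. Its level went from 119.2 ± 4.56 CPM in Control to 850.7 ± 66.9 in BSA, a log2 fold change of 2.84 ± 0.05 (7.14-fold; adjusted p = 3.95e-38). Taxinine cells had 694 ± 10.9 CPM, a log2 fold change of -0.29 ± 0.04 from BSA (adjusted p = 7.51e-06) and of 2.54 ± 0.05 from Control (adjusted p = 2.08e-36). The gene lies inside Med12l on the opposite strand, without shared exon bases.

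Gpr183, the oxysterol receptor that guides B cells and dendritic cells in lymphoid tissue, measured 28.0, 24.9 and 26.3 CPM in Control, 49.2, 45.7 and 49.2 in BSA, then 40.1, 39.6 and 34.1 in Taxinine. The Taxinine libraries lay between the other groups and overlapped neither. The log2 fold change was 0.86 ± 0.07 in BSA against Control (adjusted p = 8.79e-14) and -0.35 ± 0.07 in Taxinine against BSA (adjusted p = 0.00079). Gpr183 (ENSMUSG00000051212) lies at chr14:121952551-121965195 on the minus strand, inside Ubac2 on the other strand, with no exon bases in common.

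Lysophosphatidylserine is released from activated cells and has been known for long to enhance mast cell degranulation. Its receptors Gpr34 and Gpr174, both on the X chromosome, moved in opposite directions with antigen and in the same direction with taxinine. Gpr174 (ENSMUSG00000073008, chrX:107255878-107296769, plus strand) measured 130, 106 and 123 CPM in Control, 165, 171 and 159 in BSA, then 132, 122 and 122 in Taxinine. All BSA libraries stood above the other 6, while Control and Taxinine overlapped. It rose from 119.9 ± 12.2 CPM in Control to 164.8 ± 6.16 in BSA (log2 fold change 0.46 ± 0.05, adjusted p = 2.18e-09) and was 125.2 ± 5.46 in Taxinine (-0.40 ± 0.05 from BSA, adjusted p = 1.57e-06). Against Control, Taxinine differed by 0.06 ± 0.06 on the log2 scale (adjusted p = 0.455). That last value was -0.14 with plain library totals (adjusted p = 0.0333) and -0.13 with limma on the deposited log2 values (adjusted p = 0.045), so its direction depends on the scaling.

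Gpr34 (ENSMUSG00000040229, chrX:13632089-13640858, plus strand, inside Cask on the other strand with no shared exon bases) measured 235, 223 and 229 CPM in Control, 206, 197 and 176 in BSA, then 144, 132 and 134 in Taxinine. The groups descended in that order without overlap. The level fell by 0.24 ± 0.05 on the log2 scale in BSA against Control (229 ± 5.97 to 193.1 ± 15.6 CPM, adjusted p = 7.41e-05) and by 0.51 ± 0.05 in Taxinine against BSA (136.3 ± 6.39 CPM, adjusted p = 1.39e-09). The latter had the smallest p of the 46 receptors in that comparison. P2ry10, another lysophosphatidylserine receptor, which is on the list of other mast cell receptors, averaged 41.7 CPM in Control, 37.8 in BSA and 32.0 in Taxinine; its log2 fold change was -0.14 ± 0.07 (adjusted p = 0.098) and then -0.23 ± 0.07 (adjusted p = 0.0479). P2ry10 was named after its values were seen.

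Gpr55 responds to lysophosphatidylinositol. Its libraries measured 38.9, 31.8 and 34.7 CPM in Control, 28.2, 25.6 and 30.3 in BSA, then 21.9, 24.5 and 22.8 in Taxinine, again a descent without overlap. The log2 fold change was -0.33 ± 0.08 in BSA against Control (adjusted p = 0.000714) and -0.28 ± 0.09 in Taxinine against BSA (adjusted p = 0.0439). The second call held in 3 of the 9 fits that left out 1 library, with an adjusted p between 0.0164 and 0.206 over all alternatives. Gpr55 (ENSMUSG00000049608, chr1:85938318-85961007, minus strand) shares 71 exon bases (1.9%) with 4933407L21Rik on the opposite strand.

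The other receptors of this group were less abundant. Gpr139, which responds to aromatic amino acids, measured 2.12, 1.34 and 2.16 CPM in Control, 0.835, 0.630 and 0.364 in BSA, then 0.810, 0.570 and 0.907 in Taxinine. It fell by 1.57 ± 0.35 on the log2 scale in BSA against Control (adjusted p = 0.000365). Gpr75, reported as the receptor of an arachidonic acid metabolite, measured 2.45, 2.37 and 1.96 CPM in Control against 1.22, 0.867 and 0.728 in BSA, and fell by 1.24 ± 0.30 (adjusted p = 0.000757). In both genes every BSA and Taxinine library was under every Control library, and Taxinine and BSA overlapped. The proton sensor Gpr65 averaged 9.69 CPM in Control, 10.2 in BSA and 10.6 in Taxinine, and Gpr132, which responds to oxidised fatty acids, averaged 5.74, 6.19 and 6.38 CPM. Neither passed the test in either comparison, with adjusted p-values from 0.673 to 0.895. Gpr182, which binds chemokines, averaged 0.455, 0.135 and 0.178 CPM, near the detection limit.

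**Figure D3:**
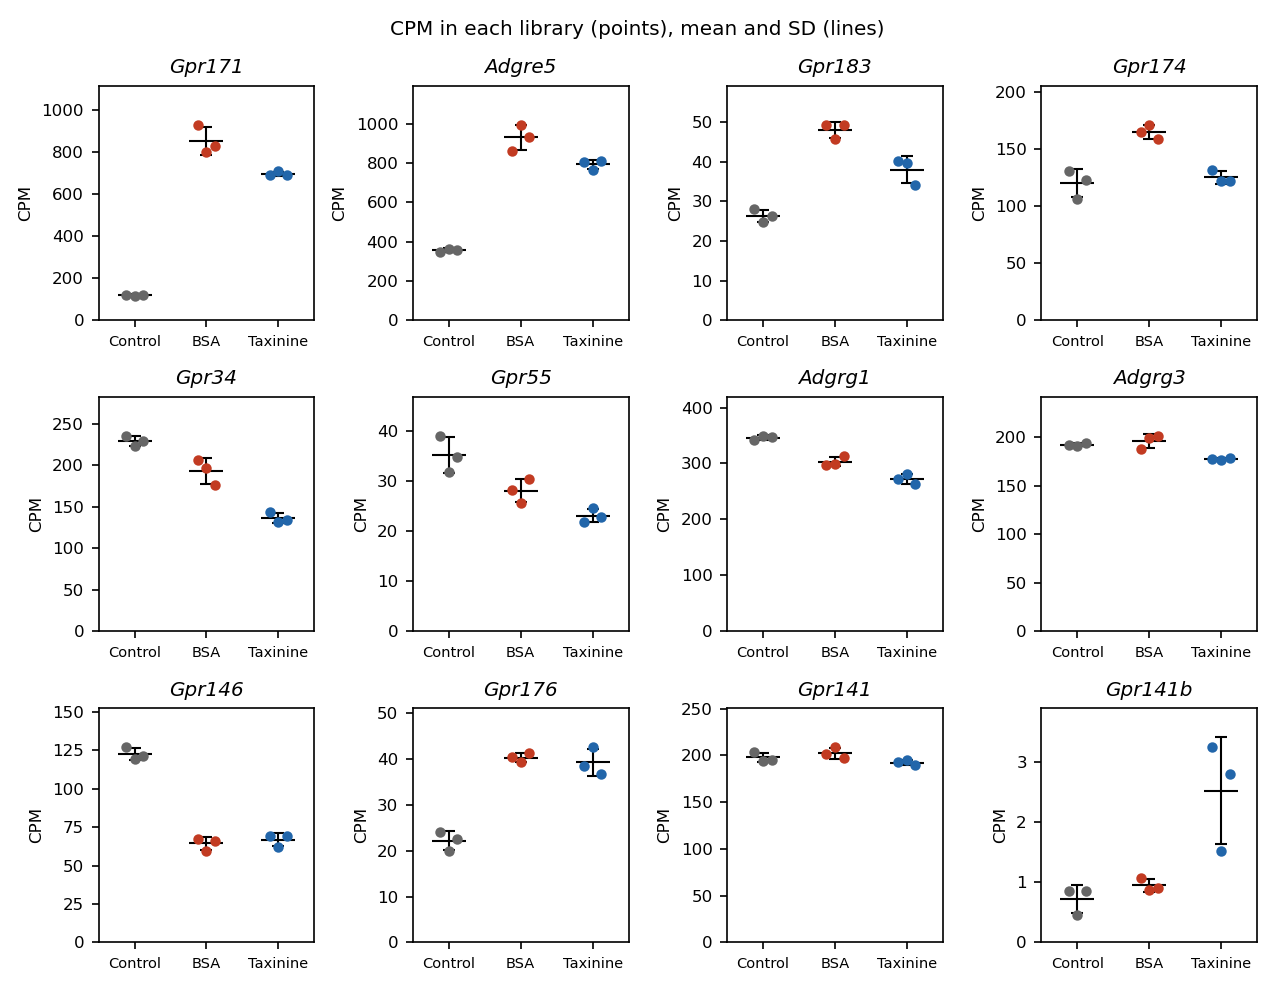
Level in CPM (axes from 0) of 12 receptors in each of the 3 Control, BSA and Taxinine libraries, with points for libraries and lines for the mean and SD. Gpr171, Adgre5, Gpr183 and Gpr174 were highest in BSA, Gpr34, Gpr55 and Adgrg1 descended from Control to Taxinine, and Gpr141b was highest in Taxinine at 1.52 to 3.24 CPM.

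Of the 14 orphans without an accepted ligand, 2 rose and 3 fell in BSA against Control, and 1 rose and 0 fell in Taxinine against BSA with edgeR. At an unadjusted p under 0.05 edgeR gave 1 lower in the latter, and DESeq2 and limma also called 0 lower. The group's medians were 0.15 and -0.06 on the log2 scale. Gpr146, an orphan that governs lipoprotein output of the liver in mice, measured 127, 119 and 121 CPM in Control, 67.3, 59.7 and 65.9 in BSA, then 69.2, 62.1 and 69.4 in Taxinine. BSA and Taxinine overlapped and both stood well under Control. The log2 fold change was -0.93 ± 0.06 in BSA against Control (adjusted p = 2.4e-18) and 0.06 ± 0.06 in Taxinine against BSA (adjusted p = 0.664). Gpr176, an orphan of the circadian clock neurons of mice, showed the opposite step: 23.99, 20.0 and 22.5 CPM in Control, 40.4, 39.2 and 41.3 in BSA, then 38.4, 42.6 and 36.8 in Taxinine. It rose by a log2 fold change of 0.86 ± 0.08 (adjusted p = 5.68e-13) and was then -0.04 ± 0.07 in Taxinine against BSA (adjusted p = 0.827). Gpr146 (ENSMUSG00000044197) lies at chr5:139377697-139396415 on the plus strand inside 3110082I17Rik, and Gpr176 (ENSMUSG00000040133) at chr2:118277110-118373419 on the minus strand. Both receptors thus passed the test in BSA against Control and not in Taxinine against BSA.

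Gpr141, an orphan of myeloid cells and the most abundant of this group, measured 204, 194 and 196 CPM in Control, 201, 209 and 197 in BSA, then 193, 195 and 189 in Taxinine. The log2 fold change was 0.03 ± 0.04 (adjusted p = 0.623) and then -0.07 ± 0.04 (adjusted p = 0.376). Under plain totals, limma on deposited values and limma after quantile normalisation the first value was -0.20, -0.20 and -0.16, called lower in each (adjusted p from 0.000214 to 0.00249), so that its direction depends on the scaling. Gpr141b lies 16731 bases from Gpr141 on the same strand and is annotated as a long intergenic noncoding RNA in GENCODE M21. It had 13, 7 and 13 counts in Control, 14, 11 and 10 in BSA, then 28, 16 and 37 in Taxinine, or 0.859, 0.448 and 0.850 CPM, 1.06, 0.867 and 0.909 CPM, and 3.24, 1.52 and 2.79 CPM. Every Taxinine library was above every other library, and Taxinine replicate 2 was the lowest of the 3. The level went from 0.946 ± 0.103 CPM in BSA to 2.52 ± 0.892 in Taxinine, a log2 fold change of 1.39 ± 0.33 (2.62-fold; adjusted p = 0.00423). Its adjusted p was between 0.00173 and 0.0448 in the alternatives that gave one, and DESeq2 gave none at this count. No stretch of the read length was shared between Gpr141b and any other annotated gene.

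The remaining orphans that passed the test were at low levels or close to the threshold. Gpr153 had 2, 3 and 3 counts in Control, 11, 9 and 9 in BSA, then 3, 3 and 8 in Taxinine, and rose by a log2 fold change of 2.12 ± 0.55 in BSA against Control (adjusted p = 0.00205). All its Control libraries were at or under 3 counts. Gpr157 measured 2.12, 2.56 and 2.16 CPM in Control and 1.59, 1.42 and 0.909 in BSA, a fall of 0.78 ± 0.27 on the log2 scale, which missed the threshold with DESeq2 (adjusted p = 0.0868) and without Control replicate 2 (0.0909) or BSA replicate 3 (0.127). Gpr162 measured 14.4, 15.2 and 15.2 CPM in Control and 10.9 to 13.1 in BSA, a fall of 0.28 ± 0.11 that missed it with DESeq2, after quantile normalisation and without any of 3 libraries (adjusted p up to 0.366). In both, every BSA library was under every Control library. The other 7 orphans did not pass the test in any comparison. Of these Gpr19 averaged 4.54, 5.01 and 5.41 CPM in the 3 groups, Gpr63 1.48, 1.46 and 1.30 CPM and Gpr160 0.802, 0.905 and 1.17 CPM, while Gpr21, Gpr82, Gpr149 and Gpr179 were under 1 CPM in every library.

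The 8 membrane proteins of Golgi, lysosome and related compartments that carry Gpr names were grouped apart. Most of the 8 are not established as surface receptors that signal. In BSA against Control 1 rose and 1 fell, with a median of -0.12. With limma on deposited values 6 of the 8 were called lower and 1 higher. Of all 15109 genes limma called 7852 there, only 13.6% of them higher. In Taxinine against BSA 0 were called in either direction by edgeR, DESeq2 or limma, and 0 had an unadjusted p under 0.05 with any of them. Gpr137c, of a lysosomal family, measured 0.727, 0.320 and 0.131 CPM in Control, 2.88, 2.84 and 1.82 in BSA, then 2.20, 1.71 and 2.72 in Taxinine. It rose by a log2 fold change of 2.67 ± 0.37 in BSA against Control (adjusted p = 1.13e-07), and its BSA and Taxinine libraries all stood above those of Control. Its relatives Gpr137 (21.2, 18.7 and 19.7 CPM) and Gpr137b (13.7, 11.7 and 10.9 CPM in Control, BSA and Taxinine) did not pass the test in either comparison, and 16.43% of the read-length stretches of Gpr137b recur in its pseudogene. Gpr180 fell by 0.37 ± 0.14 (7.78 ± 0.800 to 6.05 ± 0.991 CPM, adjusted p = 0.0348), a call lost with DESeq2, after quantile normalisation and without any of 3 libraries (adjusted p up to 0.289). The Golgi proteins Gpr107 and Gpr108 and the anion channel Gpr89 averaged 42.6 to 45.2, 53.0 to 54.8 and 13.3 to 14.7 CPM over the 3 groups and did not pass the test. Without TMM scaling Gpr108 was called lower in BSA against Control, at -0.28 with plain totals (adjusted p = 7.22e-05) and -0.27 with limma (adjusted p = 0.000115), and also in Taxinine against Control. Gpr155, a cholesterol sensor of the lysosome, averaged 2.82, 2.29 and 2.93 CPM and did not pass it either.

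Of the 13 adhesion receptors 2 rose and 1 fell in BSA against Control (median 0.15), and 3 fell in Taxinine against BSA (median -0.06) while the other 10 did not pass the test. Adgre5 (ENSMUSG00000002885, chr8:83723251-83741326, minus strand) measured 345, 365 and 358 CPM in Control, 862, 992 and 933 in BSA, then 803, 766 and 807 in Taxinine. The groups did not overlap, and the antigen-exposed libraries all had at least 766 CPM. The level rose from 355.9 ± 10.03 to 929.2 ± 65.0 CPM with antigen (log2 fold change 1.38 ± 0.04, 2.61-fold, adjusted p = 3.64e-28) and was 791.9 ± 22.9 CPM in Taxinine (-0.23 ± 0.04 from BSA, adjusted p = 0.000249). Adgre5 shares 895 exon bases (23.8% of its own) with Ddx39, an RNA helicase on the opposite strand. The kit marks the strand, but the strand setting of the counting is not given in the sources used here, and without strand the reads of the shared stretch cannot be told apart. Ddx39 rose as well, from 73.1 to 114 CPM (log2 fold change 0.64 ± 0.05, adjusted p = 1.65e-13), less than Adgre5, and fell by 0.19 ± 0.05 in Taxinine against BSA (adjusted p = 0.0208), close to the -0.23 of Adgre5.

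Adgrg1 and Adgrg3 are neighbours on chromosome 8, with 3475 bases between them. Adgrg1 (ENSMUSG00000031785, chr8:94974751-95014217, plus strand) measured 342, 349 and 348 CPM in Control, 298, 299 and 313 in BSA, then 272, 280 and 263 in Taxinine, a descent without overlap. It fell by 0.19 ± 0.04 on the log2 scale in BSA against Control (adjusted p = 0.000241) and by 0.16 ± 0.04 in Taxinine against BSA (adjusted p = 0.0133). The second call was lost after quantile normalisation and without BSA replicate 3, Taxinine replicate 1 or Taxinine replicate 3 (adjusted p from 0.00434 to 0.12 over the alternatives). Adgrg3 (ENSMUSG00000060470, chr8:95017692-95045250, plus strand), a receptor of granulocytes, measured 192, 191 and 194 CPM in Control, 188, 200 and 201 in BSA, then 178, 177 and 178 in Taxinine. Taxinine stood under both other groups, which overlapped. Adgrg3 fell by 0.14 ± 0.04 in Taxinine against BSA (adjusted p = 0.0405), a call kept in 3 of the 9 fits that left out 1 library (adjusted p from 0.0221 to 0.144). In BSA against Control it was 0.03 ± 0.04 (adjusted p = 0.681), but it was called lower with plain library totals (-0.20), with limma on the deposited values (-0.20) and after quantile normalisation (-0.15).

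Adgre1 encodes F4/80, a surface marker of macrophages that eosinophils also carry. It measured 42.7, 43.3 and 46.5 CPM in Control, 47.2, 48.9 and 53.2 in BSA, then 48.1, 46.1 and 48.2 in Taxinine. The rise of 0.17 ± 0.06 with antigen passed the test (adjusted p = 0.0292), but it was -0.06 with plain library totals and -0.05 with limma on the deposited values, where it did not pass (adjusted p up to 0.474). The call was also lost with DESeq2 (0.054), after quantile normalisation (0.073), and without Control replicate 1, Control replicate 2 or BSA replicate 3 (adjusted p up to 0.174). The teneurin receptor Adgrl1 averaged 108, 110 and 111 CPM in Control, BSA and Taxinine, and Adgrg7 averaged 21.8, 22.8 and 23.8 CPM. Adgrl2, the relative of Adgrl1, averaged 0.436, 0.656 and 0.775 CPM. None of these 3 passed the test, and the groups overlapped in each. The others were Adgra3 at 12.6 to 14.99 CPM, Adgrg6 at 2.93 to 3.78 CPM, and Adgra1, Adgra2, Adgre4 and Adgrd1 under 1 CPM.

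Taxinine against Control shares its libraries with both comparisons above. There 18 receptors differed (39.1%), 8 higher and 10 lower, against 33.1% of all genes, and the groups did not overlap for 23, against 43.7%. Gpr34 fell by 0.75 ± 0.05 on the log2 scale (adjusted p = 1.96e-16), Gpr55 by 0.60 ± 0.08 (adjusted p = 7.95e-08) and Adgrg1 by 0.35 ± 0.04 (adjusted p = 4.09e-09). Adgre5 was 1.154 ± 0.04 higher (adjusted p = 3.63e-25) and Gpr183 0.52 ± 0.07 higher (adjusted p = 3.04e-07). Gpr141b was 1.79 ± 0.33 higher (adjusted p = 2.36e-05). Among the receptors called in this comparison and in neither other one, 3 are named after their values were seen: Adgra3 rose (0.25 ± 0.10, adjusted p = 0.0437), and Gpr137b (-0.31 ± 0.11, adjusted p = 0.0327) and Adgra2 (adjusted p = 0.0151) fell. Adgra2 had 3 counts in all Taxinine libraries together against 23 in Control, a ratio of 0.185 with a 95% interval from 0.0356 to 0.613 that covers counting error only.

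Many receptors share their locus with another gene. Of the 46, 29 overlapped another annotated gene, 6 lay wholly inside one, and 12 shared exon bases with a gene that is itself in the table. Med12l, which contains Gpr171, had a log2 fold change of 0.27 ± 0.07 in BSA against Control (adjusted p = 0.00185), against 2.84 for Gpr171. Next to it, 12034 bases away, P2ry14, the receptor for UDP-glucose, rose by 0.25 ± 0.04 (adjusted p = 7.58e-06) and then fell by 0.30 ± 0.04 in Taxinine against BSA (adjusted p = 6.99e-06). For Gpr183 and its host Ubac2 the values were 0.86 and 0.01 in the first comparison and -0.35 and 0.05 in the second. Cask, the host of Gpr34, averaged 4.01, 4.99 and 4.81 CPM and did not pass the test in either comparison. The host of Gpr146 differed by 0.19 (adjusted p = 0.102) where Gpr146 fell by 0.93. Some other neighbours moved in the direction of the receptor in BSA against Control. Ero1l, an oxidase of the endoplasmic reticulum 362 bases from Gpr137c, went from 1633 to 4357 CPM (1.42 ± 0.04, adjusted p = 2.96e-29) where Gpr137c rose by 2.67. Tgds, 4403 bases from Gpr180, fell by 0.58 ± 0.14 (adjusted p = 0.000849), and Gm37795, 16368 bases from Gpr157, fell by 0.59 ± 0.11 (adjusted p = 2.75e-05). Cox19, 26279 bases from Gpr146, fell by 0.55. Psmc6 rose by 0.399 near Gpr137c (adjusted p = 3e-09), Eif2ak4 by 0.165 near Gpr176 (adjusted p = 0.0384) and Acot7 by 0.175 near Gpr153 (adjusted p = 0.0125), where these receptors rose. Others moved against the receptor: Spsb2 and Tpi1 rose by 0.625 and 0.345 near Gpr162, and Psme4 by 0.16 near Gpr75, where both receptors fell. Itm2c rose by 0.145 near Gpr55, which also fell. In Taxinine against BSA both fell, Itm2c at -0.139 (adjusted p = 0.0177). Txndc16, which shares 159 exon bases with Gpr137c, did not pass the test in BSA against Control (-0.04 ± 0.08, adjusted p = 0.76). The part of neighbouring genes in these values was not tested. The overlap of Gpr55 with 4933407L21Rik, which rose by 2.76 ± 0.27 in BSA against Control (adjusted p = 2.88e-11), went with a fall of Gpr55.

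**Figure D4:**
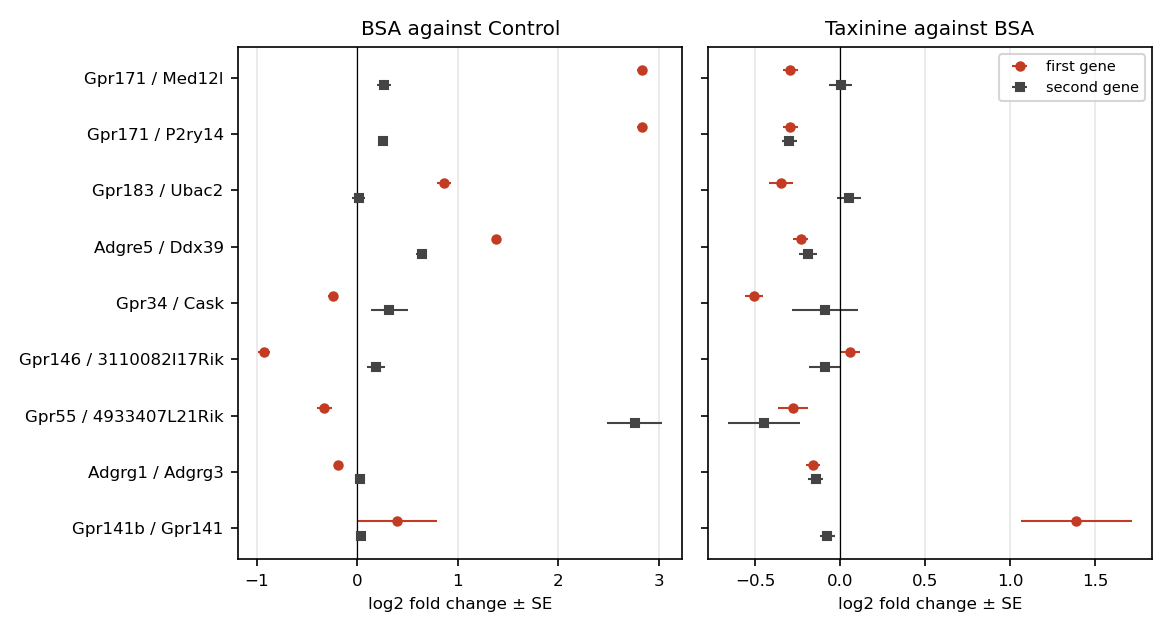
Log2 fold change ± SE in BSA against Control (left) and Taxinine against BSA (right), with the first gene named as a circle and the second as a square. Shown are 7 pairs of a receptor with an overlapping or adjacent gene, 2 of them with Gpr171, and 2 pairs of neighbouring receptors. Gpr183 stood at 0.86 and its host Ubac2 at 0.01 on the left, and Adgre5 at 1.38 with Ddx39 at 0.64.

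Markers of other cells moved with some of these receptors. Beside the falls of Gpr34, Gpr55, Adgrg1 and Adgrg3 in Taxinine, the macrophage and monocyte list, with 13 of its 14 genes in the table, summed to 212.5 to 214.9 CPM in Control, 195.9 to 198.7 in BSA and 139 to 146.6 in Taxinine. Most of that sum was Ccr2, at 112.5, 88.2 and 57.1 CPM, and Cx3cr1, at 68.1, 66.4 and 52.9 CPM. Lyz2, on the same list, was highest in BSA, as Gpr171, Adgre5, Gpr183 and Gpr174 were, at 14.6, 21.8 and 14.95 CPM (log2 fold change 0.57 ± 0.09, adjusted p = 2.01e-06, then -0.53 ± 0.10, adjusted p = 0.000218). The defining Csf1r was at 0.758, 0.869 and 1.02 CPM and C1qb at 0.0867, 0.192 and 0.121 CPM. Beside the rises of Gpr171, Adgre5, Gpr183 and Gpr174, the basophil list, with all 5 genes in the table, summed to 1449 to 1480 CPM in Control, 2581 to 2920 in BSA and 2244 to 2293 in Taxinine. Its largest difference was in the chemokine Ccl3, from 89.5 to 1341 CPM, and the proteases Mcpt8 (77.4, 91.8 and 71.8 CPM) and Prss34 (484.0, 524.1 and 483.3 CPM) also rose in BSA against Control. Cd200r3, the largest part of the list in Control, fell there, at 770.0, 699.3 and 655.1 CPM in the 3 groups (adjusted p = 0.00772). The eosinophil list had 2 of 7 genes in the table, Siglecf and Ccr3, and summed to 12.5 to 14.1, 23.99 to 28.9 and 19.0 to 20.8 CPM, with Epx and Prg2 not in it. The neutrophil list summed to 2.05 to 2.56 CPM in Control, 1.18 to 1.90 in BSA and 0.926 to 1.36 in Taxinine, and its Cxcr2 fell with antigen (adjusted p = 0.031). Of the mast cell markers 8 of 15 were called higher and 1 lower in BSA against Control. The megakaryocyte and erythroid list, with 5 of 9 genes in the table, summed to 1675 to 1729, 1658 to 1768 and 1600 to 1646 CPM, nearly all of it Itga2b. The part of other cells in these differences was not tested.

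The genes that carry the signal of such receptors were taken from lists by function. The edgeR counts of each list can be read against the shares of all genes that edgeR called. These were 16.2% higher and 17.8% lower in BSA against Control, and 2.86% and 4.12% in Taxinine against BSA. Of 33 G protein subunits 25 were in the table. Of these 6 rose and 4 fell in BSA against Control (median 0.02), and 1 rose and 3 fell in Taxinine against BSA (median -0.10). Limma on deposited values called 2 of the 25 higher and 13 lower in the first comparison, and 1 and 2 in the second. Of all 15109 genes limma called 7852 in the first, 13.6% of them higher, and 1199 in the second, 59.2% of them higher. Gna13, an alpha subunit used by several adhesion and lysophospholipid receptors, rose from 198.1 ± 8.499 to 340.7 ± 8.22 CPM with antigen (log2 fold change 0.78 ± 0.04, adjusted p = 1.57e-19). Gna11, a subunit of the Gq class, fell from 21.1 ± 0.883 to 10.6 ± 0.699 CPM (-0.99 ± 0.10, adjusted p = 4.67e-11). Gnal, a stimulatory subunit, fell with antigen (-1.21 ± 0.20, adjusted p = 2.43e-06) and was higher again in Taxinine (0.73 ± 0.22 from BSA, adjusted p = 0.0355). Gnas rose by 0.98 ± 0.10 (adjusted p = 3.2e-11), a value that is uncertain because its locus holds overlapping transcripts. In Taxinine against BSA Gna15 fell by 0.45 ± 0.10 (adjusted p = 0.00214), and Gnb4 and Gng5 each fell by 0.18.

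Of the 24 receptor kinases, arrestins and chaperones 20 were in the table. With antigen 1 rose and 5 fell, and 1 rose and 3 fell in Taxinine against BSA. Limma on deposited values called 0 of the 20 higher and 13 lower in the first comparison, and 1 and 1 in the second. Of all 15109 genes limma called 7852 in the first, 13.6% of them higher, and 1199 in the second, 59.2% of them higher. The alpha-arrestins Arrdc4 (-0.97 ± 0.09, adjusted p = 1.48e-11) and Arrdc2 (-1.10 ± 0.13, adjusted p = 1.73e-09) fell with antigen, and Ric8a, a chaperone of G protein alpha subunits, rose by 0.24 ± 0.05 (adjusted p = 4.15e-05). Gpsm3, a modulator of inhibitory G proteins, fell by 0.33 ± 0.07 (adjusted p = 9.95e-05). Arrdc3 was higher in Taxinine than in BSA (0.31 ± 0.07, adjusted p = 0.00468), and Arrb2, Ric8a and Grk2, which desensitise or fold parts of this pathway, fell by 0.19, 0.15 and 0.14 on the log2 scale. Of 17 adenylyl cyclases and phospholipases 14 were in the table. In BSA against Control 3 were higher (Plcb4, Plcb1 and Adcy4, by 0.46, 0.29 and 1.45) and 1 lower (Plcb3, -0.29). Limma on deposited values called 2 of the 14 higher and 5 lower there. In Taxinine against BSA 0 of these 14 were called by edgeR, DESeq2 or limma, and 1 in each direction had an unadjusted p under 0.05 with edgeR.

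The list of other receptors with known ligands on mast cells had 48 of its 58 genes in the table, 14 higher and 15 lower in BSA against Control (median -0.09), and 1 higher and 15 lower in Taxinine against BSA (median -0.21). Of all genes edgeR called 16.2% higher and 17.8% lower in the first comparison, and 2.86% and 4.12% in the second. Limma on deposited values called 11 of the 48 higher and 20 lower in the first, and 2 and 11 in the second. Of all 15109 genes limma called 7852 in the first, 13.6% of them higher, and 1199 in the second, 59.2% of them higher. The chemokine receptor Ccr1 rose from 186.6 ± 4.99 to 527.0 ± 39.5 CPM with antigen (1.499 ± 0.05, adjusted p = 8.69e-29) and was 375.2 ± 4.42 CPM in Taxinine (-0.49 ± 0.04 from BSA, adjusted p = 1.08e-10). The adenosine receptors Adora3, Adora2b and Adora2a rose by 1.40, 1.53 and 1.78 with antigen. In Taxinine against BSA Adora2a fell by 0.41 ± 0.06 (adjusted p = 1.02e-06) and Ccr2 by 0.63 ± 0.06 (adjusted p = 1.3e-10).

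**Figure D5:**
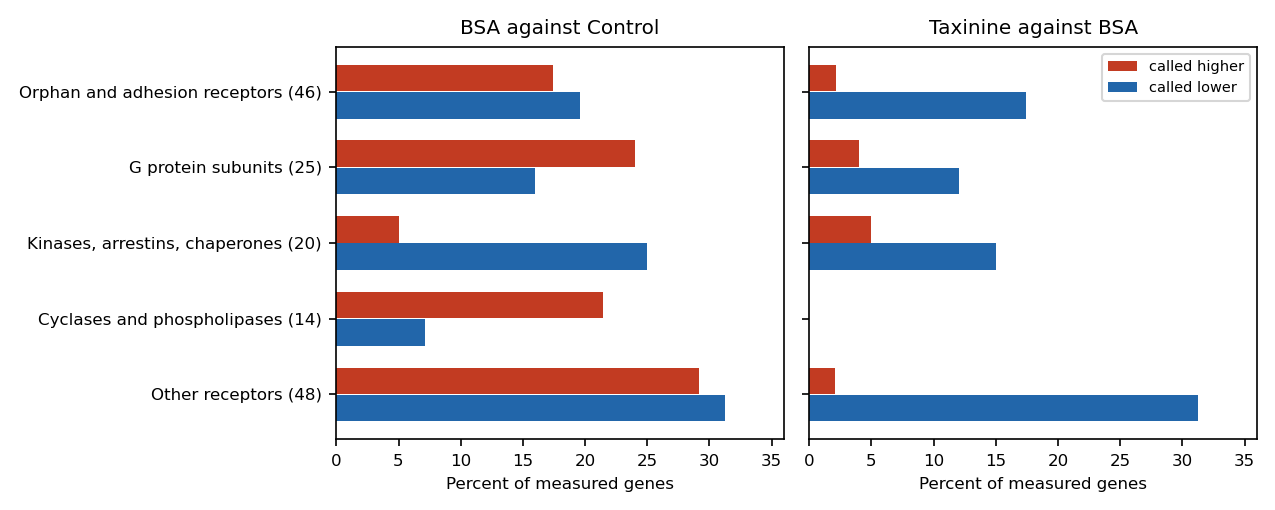
Percent of measured genes called higher (red) and lower (blue) in BSA against Control (left) and Taxinine against BSA (right) for the 46 orphan and adhesion receptors and 4 coupling lists, with the number of genes measured in brackets. In the right panel the other receptors had 15 of 48 genes called lower and the orphan and adhesion receptors 8 of 46.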

How the data were processed

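Messenger RNA of 9 mast cell libraries, 3 a group, was sequenced from strand-marking polyA libraries as pairs of 101-base reads, per the labels' protocols. The submitters' processing notes name STAR 2.7.0f, limma 3.11 and the builds mm10 and GRCm38. How reads were counted, on which annotation and with or without strand, is not given in the sources used here. Whole-number read counts for 15109 genes were deposited by the authors. They are named as TMM-normalised, but were taken as unscaled because they are whole numbers with unequal library totals from which the deposited log2 values follow without TMM. The TMM factors applied here rest on that inference. The authors also deposited log2 values, which equal log2(CPM + 1) on plain library totals within 5e-05. Every gene listed had a count in at least 4 libraries, so a filter on low values preceded deposit. No further filter was applied.

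edgeR 4.0.16 (quasi-likelihood test, TMM, 1 fit over all libraries, Benjamini-Hochberg over 15109 genes, called at an adjusted p under 0.05) was run in R 4.3.3. The procedure was run on simulated data with changes in a small part of the genes, none of them at low counts. That run does not check calls at low counts, such as that of Gpr153. Alternatives were plain library totals, DESeq2 1.42.0, limma 3.58.1 on the deposited and on quantile-normalised log2 values, a filter of over 1 CPM in 3 libraries, a replicate block, fits of 2 groups alone, and leaving out each library. Standard errors are derived from the F statistic. Exon lengths, coordinates and overlaps are from GENCODE M21. Intervals and the limit of 3 counts cover counting error only.

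The members, their groups by role and the gene lists were chosen with earlier results of these data known. Values are given for every member called in the first or second comparison, the 8 with the highest level per kilobase, 14 receptors of interest in mast cells (of which Gpr35 and Gpr84 had no row and were not analysed here), and up to 4 called genes with the smallest p of each list. The values of 1 receptor and 1 coupling list, which the counts include, are not reported here. Other named genes were chosen after their values were seen or complete the account of the members.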

Additional observations from a re-analysis of the deposited data

How the results depend on the processing

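Scaling moved counts by over 1.5 times in the comparisons with Control, and did not do so for the receptors in Taxinine against BSA. In BSA against Control the 9 receptors called lower became 18 with plain library totals and 18 with limma on deposited log2 values, and in Taxinine against Control the 10 became 17 and 18; both settings leave out TMM, which moves the median of all genes. Under the same 2 settings Adgre1 in BSA against Control was -0.058 and -0.055 and Gpr174 in Taxinine against Control -0.14 and -0.13. Under plain totals, limma on deposited values and quantile normalisation, Adgrg3 in BSA against Control was -0.20, -0.20 and -0.15, and Gpr141 -0.20, -0.20 and -0.16. Over the coupling lists 24 genes were higher and 25 lower in BSA against Control. With plain totals these were 15 and 55, limma on deposited values gave 15 and 54, and quantile normalisation gave 38 lower. All genes called there were 7977, 7852 and 5024 in place of 5144, with 13.6%, 13.6% and 37.8% of them higher in place of 47.6%. In Taxinine against BSA the lists had 3 higher and 22 lower, and plain totals gave 14 lower. All genes called there were 1122 in place of 1055, with 57.6% of them higher in place of 40.9%.

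DESeq2 called 0 receptors higher in Taxinine against BSA, where it gave 20 of the 46, Gpr141b among them, no adjusted p; 1 had an unadjusted p under 0.05, and edgeR and limma each called 1. It called 1 coupling gene higher there. Leaving out each library gave 5 to 8 receptors lower in Taxinine against BSA, with 5 without BSA replicate 3, Taxinine replicate 1 or Taxinine replicate 3. Of all genes these 3 fits called 737, 659 and 699 in place of 1055, and the fit without Taxinine replicate 2 called 616. For the coupling lists leaving out each library gave 1 to 3 higher, with 1 without BSA replicate 2, BSA replicate 3 or Taxinine replicate 3. The lists had 14 to 23 lower, with 14 without Taxinine replicate 1 or Taxinine replicate 2. The cause was not tested. In BSA against Control 7 of 8 receptors called higher and 6 of 9 called lower kept the call under every alternative that tested them. In Taxinine against BSA 5 of the 8 called lower did so. Gpr153, among the 7, was dropped by the filter of over 1 CPM in 3 libraries and was not tested there.

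Replicate numbers are shared between groups, but the deviations of the 9 same-numbered pairs correlated from -0.13 to 0.114, only 1 pair over 0.1, and 2 of 9 libraries correlated best with their own number. With a replicate block 8 receptors were higher and 9 lower in BSA against Control, 1 and 8 in Taxinine against BSA, and 8 and 10 in Taxinine against Control. Depth limits the 13 receptors under 1 CPM, where 3 counts correspond to 0.213 to 0.334 CPM on plain library totals.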
